A study of Mus musculus with 12 samples.

Results

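The genes described here encode 36 lysosomal proteins, the hydrolases of the lysosome lumen and the proteins of its limiting membrane. They were taken by gene symbol from the 21930 genes of the count table, and each of the 36 symbols matched a single gene. The list comprised 11 cathepsins, 9 glycosidases, 6 proteins of lipid handling, 7 membrane proteins and 3 other luminal proteins. Within it, 4 members that are known chiefly from phagocytes (Ctss, Laptm5, Lyz2 and Cd68) were set beside the other 32 members, most of which many cell types use.

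RNA was sequenced from the eye cups of wild type male C57BL/6 J mice in 4 groups of 3 libraries. Mice were fed ad libitum (AL) or on alternate days (intermittent fasting, IF) for 12 weeks from 8 weeks of age. They then received 1 intraperitoneal injection of PBS or of sodium iodate (NaIO3) at 25 mg/kg, an oxidant that damages the retinal pigment epithelium (RPE), and tissue was collected 7 days later. The groups are named AL+PBS, IF+PBS, AL+NaIO3 and IF+NaIO3. All 4 groups thus shared genotype, sex and strain, and the diets were kept up after the injection. The model is acute and chemical, so the RPE of the NaIO3 groups was injured at adult age in otherwise healthy animals.

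Lysosomal hydrolases are made as precursors, sorted from the Golgi to the lysosome and activated at its acidic pH, where they break down proteins, glycans and lipids. The RPE carries a heavy lysosomal load, because it engulfs and digests the shed tips of photoreceptor outer segments throughout life. Microglia and macrophages are the other large users of lysosomes in the eye, and they express a further set of lysosomal genes at high level, cathepsin S, CD68, LAPTM5 and lysozyme among them.

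Library totals ran from 26364665 to 43046950 counts. The labels call the tissue RPE/choroid/sclera complex and the methods call it eye cup. RPE markers were present, but photoreceptor markers were far more abundant, with a summed level of 12 genes between 20330 and 67260 CPM (counts scaled to library size) in the 12 libraries, so the tissue also held neural retina. AL+NaIO3 replicate 3 stood apart from every other library. Its 12 photoreceptor markers summed to 0.343 times the AL+PBS mean, its 8 markers of choroid and sclera stroma to 6.87 times and its 15 phagocyte markers to 6.20 times. The counts over the list and the members called are therefore given with and without it, as are the differences of most members named. In bulk tissue, a change in the number of cells and a change in RNA per cell cannot be told apart. The p-values weigh the difference between groups against the spread between these libraries.

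Levels of different genes were compared as FPKM, which divides the reads of a gene by its length and by the library size. In AL+PBS the group means of the 36 genes ran from 0.815 to 199 FPKM. Psap, the precursor of the saposins that activate sphingolipid hydrolases, was highest with a mean of 199 ± 10.4 FPKM (SD, n = 3). Ctsd, the aspartic protease cathepsin D, followed at 162 ± 1.81 FPKM, and the libraries of these genes did not overlap in level. Ctsb, a cysteine protease, and Lamp1, a glycoprotein that lines the lysosomal membrane, came next at 78.3 ± 3.47 and 78.1 ± 2.13 FPKM, a difference smaller than their spread. Ctsf at 60.9 ± 4.87 FPKM and the tetraspanin Cd63 at 59.7 ± 2.53 FPKM likewise did not differ beyond their spread. At the other end stood Ctsk at 1.80, Cd68 at 1.40, Manba at 1.25 and Laptm5 at 0.815 FPKM. Thus the phagocyte-restricted members began low, with Lyz2 in place 22, Ctss in place 23, Cd68 in place 34 and Laptm5 in place 36 of the 36.

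**Figure D1:**
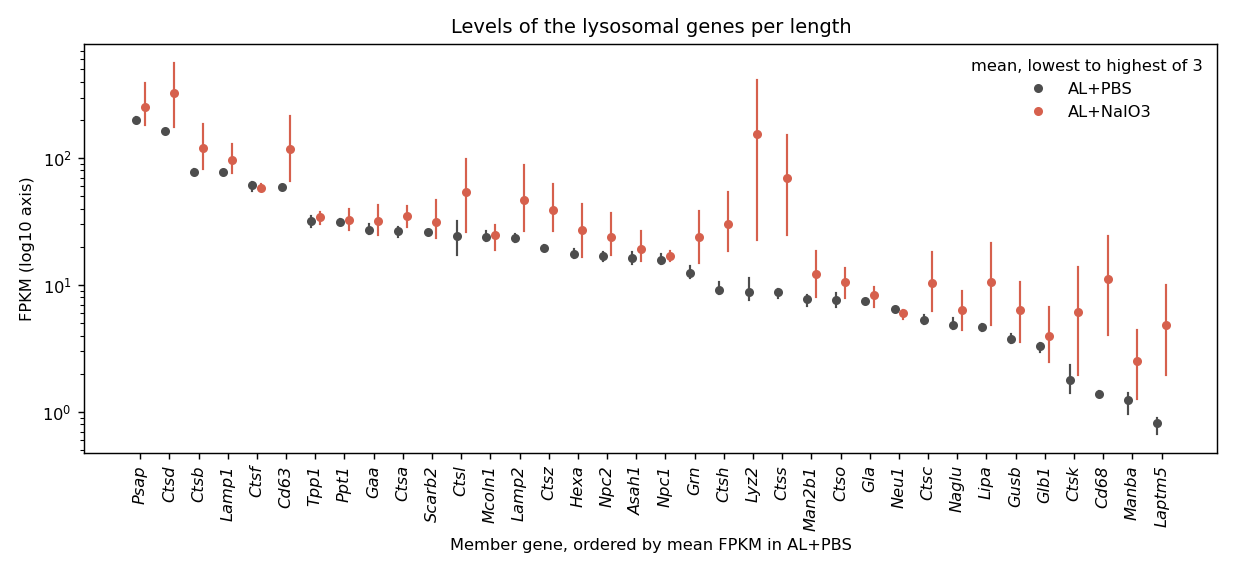
Mean FPKM (points, log10 axis) and the lowest to highest of 3 libraries (lines) of the 36 genes in AL+PBS (grey) and AL+NaIO3 (red), ordered by the AL+PBS mean. In AL+NaIO3, Lyz2 moved from place 22 to place 3 and Ctss from place 23 to place 7, with wide ranges.

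In AL+NaIO3 the order of levels differed at these members. Lyz2 stood in place 3 at 155 ± 224 FPKM and Ctss in place 7 at 70.2 ± 70.8 FPKM, and the SDs, as large as the means or larger, mark how unequal the 3 libraries were. In IF+NaIO3 Lyz2 was in place 27 and Ctss in place 22, and Cd68 and Laptm5 kept places 34 and 36. The top of the order (Psap, Ctsd, Ctsb, Lamp1, Ctsf, Cd63, Tpp1) was the same in AL+PBS, IF+PBS and IF+NaIO3.

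For 3 of the phagocyte-restricted members the bases before their starts are shown, from RefSeq (GRCm38.p6). The capitals mark GAGGAA on either strand, a core that the myeloid factor PU.1 (gene Spi1) is known to read.

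Ctss (chr3:95526536-95526785, plus strand): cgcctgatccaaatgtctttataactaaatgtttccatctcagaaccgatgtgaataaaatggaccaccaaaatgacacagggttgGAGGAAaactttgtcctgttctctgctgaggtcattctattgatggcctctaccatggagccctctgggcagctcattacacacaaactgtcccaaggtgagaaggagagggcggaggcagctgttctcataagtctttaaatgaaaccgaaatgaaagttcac
Cd68 (chr11:69666171-69666420, minus strand): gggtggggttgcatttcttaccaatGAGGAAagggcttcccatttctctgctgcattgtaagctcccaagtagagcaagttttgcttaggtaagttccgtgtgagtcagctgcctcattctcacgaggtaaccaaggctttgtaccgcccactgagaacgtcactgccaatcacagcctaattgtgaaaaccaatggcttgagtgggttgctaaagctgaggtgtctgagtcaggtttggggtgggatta
Lyz2 (chr10:117282322-117282522, minus strand): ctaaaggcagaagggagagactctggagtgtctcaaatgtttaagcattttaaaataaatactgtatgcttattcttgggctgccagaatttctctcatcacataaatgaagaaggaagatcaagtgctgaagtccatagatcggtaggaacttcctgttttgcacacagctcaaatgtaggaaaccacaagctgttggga

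Promoter windows of 250 bases before to 50 bases after the RefSeq start were found for 32 of the 36 members, and not for Ctsh, Ctsb, Npc1 and Asah1. For some members this start lies inside the gene bounds of the count table, which are those printed with the genes below. GAGGAA or its reverse complement TTCCTC was present in 15 of these 32 windows (46.9%), against 31.3% of the windows of 27025 genes. Among the phagocyte-restricted members it was present for Ctss, Cd68 and Laptm5 and not for Lyz2. The longer GAGGAAGT, which contains GAGGAA, was present for Ctss, Ctsc, Gla and Gusb, 12.5% of the 32 against 3.69% of all genes. The Ctss copy spans the start itself. The Laptm5 copy of the shorter motif lies 38 bases before the RefSeq start of Laptm5, and inside the bounds that the count table gives this gene. A match to these letters is a description of the sequence and not a measured site. A part of PU.1 in the levels of these genes was not tested.

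Ctss (chr3:95526773-95526802): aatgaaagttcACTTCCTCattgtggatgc
Laptm5 (chr4:130913267-130913294): cagcctgtggcTTCCTCttttttgttct

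To see how NaIO3 injury bore on lysosomal genes under free feeding, AL+NaIO3 was compared with AL+PBS. The phagocyte-restricted members were higher in every AL+NaIO3 library, by 2.25- to 4.10-fold in replicates 1 and 2 and by 10.7- to 40.5-fold in replicate 3. Most of the other 32 members were near the AL+PBS level in replicates 1 and 2, with median folds of 1.14 and 1.03, and near 1.94-fold in replicate 3. None of the 36 passed the test of these 6 libraries alone, in which edgeR called 12 of 15612 genes (0.0769%). With the spread estimated over all 12 libraries, 5 members were called higher, namely Ctss, Cd68, Laptm5, Lyz2 and Ctsh, where 0.952% of all genes were called higher. That fit assumes the same spread of a gene in all groups, but the AL+NaIO3 libraries were the least alike. Its adjusted p for comparisons with AL+NaIO3 can therefore be too low. DESeq2 called 4 of the 35 members it gave an adjusted p, namely Ctss, Cd68, Laptm5 and Ctsh, where 2.53% of all genes were called.

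**Figure D2:**
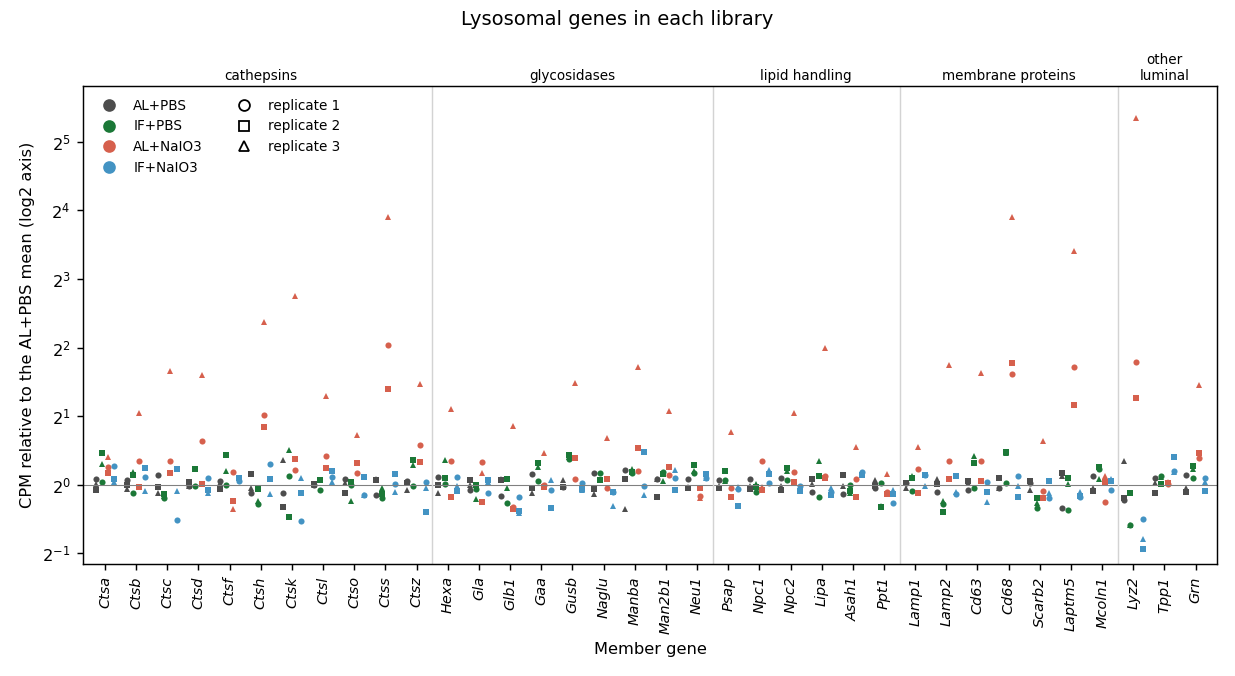
CPM of each gene in each of the 12 libraries relative to the AL+PBS mean (log2 axis), by group (colour) and replicate (shape), with the genes ordered by role. AL+NaIO3 replicate 3 (red triangles) lies above the AL+PBS mean for 33 of the 36 genes, while the red circles and squares stand clear of the other groups mainly at Ctss, Cd68, Laptm5, Lyz2 and Ctsh.

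Ctss (ENSMUSG00000038642, chr3:95526786-95556403) encodes cathepsin S, a cysteine protease of antigen presenting cells. Its levels were 13.1, 15.1 and 15.3 CPM in AL+PBS and 59.4, 38.2 and 218 CPM in AL+NaIO3. The groups did not overlap, and replicate 3 was 4.47 times the mean of the other AL+NaIO3 libraries. The log2 fold change was 2.87 ± 0.61 (SE) with an adjusted p of 0.224 in edgeR on 6 libraries, and 2.85 with an adjusted p of 0.0164 on 12. Without replicate 3 it was 1.75, with an adjusted p of 0.00817 in edgeR.

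Cd68 (ENSMUSG00000018774, chr11:69664213-69666153) encodes a glycoprotein of macrophage lysosomes and is widely used to stain activated microglia. It measured 2.02, 2.24 and 2.03 CPM in AL+PBS against 6.42, 7.18 and 31.3 CPM in AL+NaIO3. All AL+NaIO3 libraries were above all AL+PBS libraries, and replicates 1 and 2 lay close together. The log2 fold change was 2.84 ± 0.63 (SE), with an edgeR adjusted p of 0.242 on 6 libraries and of 0.0265 on 12. Without replicate 3 it was 1.69, with an edgeR adjusted p of 0.0316.

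Laptm5 (ENSMUSG00000028581, chr4:130913125-130936141), a lysosomal membrane protein of blood cells that takes part in the turnover of immune receptors, measured 2.02, 2.88 and 2.78 CPM in AL+PBS and 8.44, 5.75 and 27.3 CPM in AL+NaIO3. Again the groups were separate and replicate 3 was highest. Its log2 fold change of 2.44 ± 0.58 (SE) had an edgeR adjusted p of 0.259 on 6 libraries and of 0.0303 on 12. Without replicate 3 the value was 1.47 and was not called on the remaining 5 libraries (edgeR adjusted p of 0.0943), but it was called in a fit that also held the 6 libraries of IF mice (0.789% of all genes were called in that fit of 11 libraries).

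Lyz2 (ENSMUSG00000069516, chr10:117277331-117282321), lysozyme of the macrophage type, was the most uneven member. It measured 12.2, 12.5 and 18.1 CPM in AL+PBS and 49.3, 34.25 and 578 CPM in AL+NaIO3, so that replicate 3 was 13.8 times the mean of the other libraries of its group. Its log2 fold change was 3.96 ± 1.06 (SE) with replicate 3 and 1.55 without it. The edgeR adjusted p was 0.284 on 6 libraries, 0.0413 on 12 and 0.0233 without replicate 3, while DESeq2 gave no p for this gene. Reads of Lyz2 and of its near-identical neighbour Lyz1 may not have been fully separable.

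**Figure D3:**
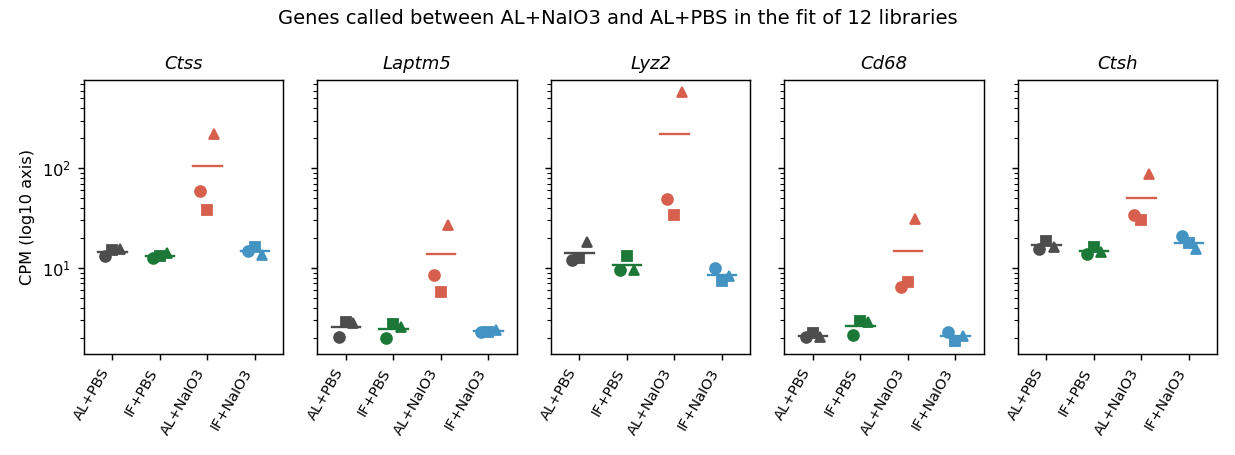
CPM (log10 axis) of Ctss, Laptm5, Lyz2, Cd68 and Ctsh in each library, with circles, squares and triangles for replicates 1, 2 and 3 and a line at the group mean of 3. The AL+NaIO3 libraries lie above all others for each gene, and replicate 3 reaches 578 CPM for Lyz2.

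Ctsh (ENSMUSG00000032359, chr9:90054152-90076089), a cysteine protease that trims peptides from their amino end, was the only member outside the phagocyte-restricted set that was called. It measured 15.4, 18.9 and 16.2 CPM in AL+PBS and 34.0, 30.1 and 87.0 CPM in AL+NaIO3, with no overlap. Its log2 fold change was 1.59 ± 0.39 (SE), with an edgeR adjusted p of 0.261 on 6 libraries and of 0.0347 on 12. Without replicate 3 it was 0.93 and was called, with an edgeR adjusted p of 0.0332.

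Phagocyte markers moved with these members. All 15 markers, among them the complement genes C1qa, C1qb and C1qc and the receptor gene Trem2, had log2 fold changes above 0, 14 of them with an unadjusted p under 0.05, and the median was 2.34. Of the 14, Aif1 passed the filter on low counts only through the AL+NaIO3 libraries and so had to differ. Their summed level was 69.2 to 78.9 CPM in AL+PBS and 230, 162 and 463 CPM in AL+NaIO3 replicates 1, 2 and 3. None of the 15 was at 0 counts in any AL+PBS or AL+NaIO3 library, whereas 9 neutrophil markers summed to at most 2.05 CPM in any library. Spi1, the gene of PU.1, measured 0.289, 1.35 and 1.44 CPM in AL+PBS and 5.91, 2.45 and 8.73 CPM in AL+NaIO3. Markers of other cells differed as well. Of 8 markers of Müller cells and astrocytes, 2 were called higher on 12 libraries, Gfap and Vim, which mark the reactive state. Their log2 fold changes were 3.34 and 1.03 on 6 libraries, and 2.61 and 0.80 without replicate 3 (edgeR adjusted p of 0.0024 and 0.0087 on 12). Of the 8, 6 had values above 0, with a median of 0.24, and -0.039 without replicate 3. The RPE list was divided. On 12 libraries Rpe65, Rdh5 and Rgr, genes of the visual cycle and its retinoids, were called lower, with log2 fold changes of -1.29, -1.06 and -1.45 on 6. The other 9 did not pass, and 4 of the 12 had values above 0, the pigment genes Tyrp1 (2.69), Pmel (1.97) and Dct (1.10) and the channel gene Best1 (0.62). Without replicate 3 Tyrp1, Pmel and Dct were at -0.62, -0.83 and -0.18 and Best1 at 0.32. The list summed to 1723 to 1939 CPM in AL+PBS and to 967, 784 and 2680 CPM in AL+NaIO3 replicates 1, 2 and 3, so that replicate 3 was high where the other two were low. The 4 phagocyte-restricted members together made 29.3 to 38.3 CPM in AL+PBS and 124, 85.4 and 855 CPM in AL+NaIO3, an order of libraries shared with the markers. Of 12 photoreceptor markers 2 had values above 0, and 0 reached an unadjusted p under 0.05 in either direction. Their median log2 fold change was -0.50, and -0.16 without replicate 3. The part of these cell types in the differences was not tested.

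**Figure D4:**
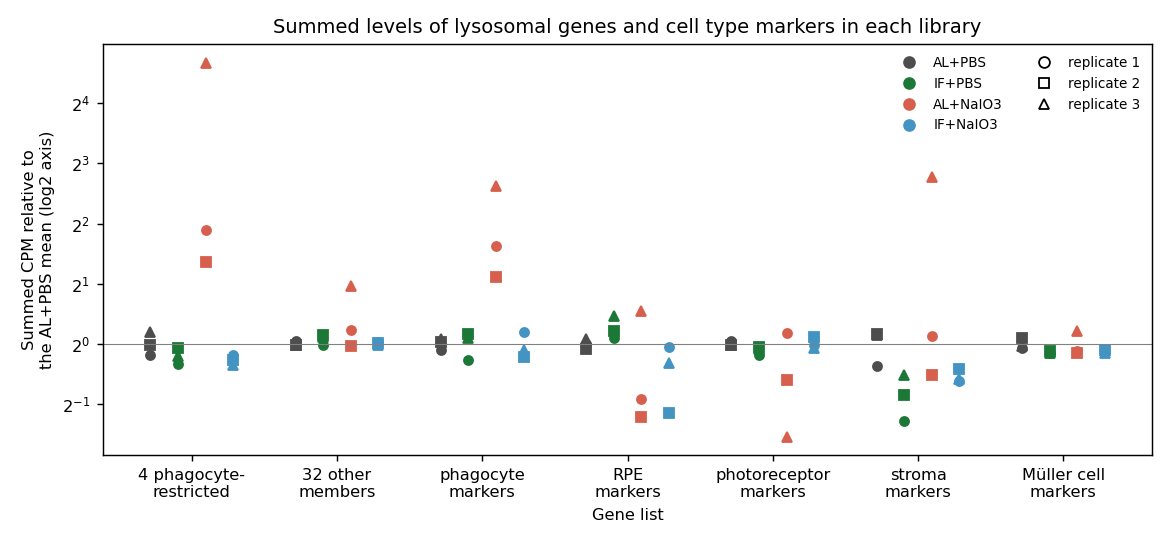
Summed CPM of the lysosomal genes and of cell type marker lists in each library relative to the AL+PBS mean (log2 axis), by group (colour) and replicate (shape). In AL+NaIO3 replicates 1 and 2 the phagocyte-restricted members and the phagocyte markers are high and the RPE markers low (0.528 and 0.428 times). The photoreceptor markers stand at 1.135 and 0.661 times in these libraries. In replicate 3 the phagocyte markers (6.20 times), the stroma markers (6.87 times) and the RPE markers (1.46 times) are high and the photoreceptor markers low (0.343 times).

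The other cathepsins were higher mainly in replicate 3. Of the 11 cathepsins, 9 reached an unadjusted p under 0.05 with higher levels (7.51% of all genes), and without replicate 3 these were 4, namely Ctsh, Ctsl, Ctss and Ctsz (6.8% of all genes). The median log2 fold change of the class was 0.89, and 0.29 without replicate 3. Ctsd measured 415, 431 and 416 CPM in AL+PBS and 654, 425 and 1274 CPM in AL+NaIO3. Replicate 2 of AL+NaIO3 lay within the AL+PBS range, and the log2 fold change of 0.91 ± 0.36 (SE) did not pass in edgeR (adjusted p of 0.455) and was 0.36 without replicate 3. Ctsk, a collagenase known from osteoclasts and fibroblasts, measured 3.05, 2.65 and 4.29 CPM in AL+PBS and 3.85, 4.299 and 22.4 CPM in AL+NaIO3. Here replicate 1 lay within the AL+PBS range and replicate 2 at its upper edge, and replicate 3 was 5.50 times their mean, in the library whose stroma markers were high. Ctsz, an exopeptidase, was more even, with 35.96, 35.35 and 32.85 CPM in AL+PBS and 51.7, 43.5 and 96.1 CPM in AL+NaIO3. These groups did not overlap, and its log2 fold change of 0.89 ± 0.28 (SE) had an edgeR adjusted p of 0.334 on 6 libraries and of 0.09995 on 12, and it was 0.46 without replicate 3. Ctsf was the exception in direction, with 143, 132 and 140 CPM in AL+PBS and 158, 117 and 109 CPM in AL+NaIO3 and a log2 fold change of -0.11. Ctsa, the protective protein of the sialidase and β-galactosidase complex, measured 106, 94.4 and 100 CPM in AL+PBS and 120, 112 and 132 CPM in AL+NaIO3, separate groups with a small log2 fold change of 0.28 ± 0.12 (SE, edgeR adjusted p of 0.463).

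Glycosidases, which cut sugars from glycoproteins and glycolipids, showed smaller differences. The median log2 fold change of the 9 was 0.28 with all libraries and 0.070 without replicate 3, and 1 of 9 (Manba) was higher at an unadjusted p under 0.05, a share near the 7.51% of all genes, and none was without replicate 3. Manba, the lysosomal β-mannosidase, measured 5.97, 5.41 and 3.996 CPM in AL+PBS and 5.87, 7.39 and 16.8 CPM in AL+NaIO3, overlapping groups whose log2 fold change was 0.98 with replicate 3 and 0.37 without it. Gusb, β-glucuronidase, measured 9.11, 9.09 and 9.73 CPM in AL+PBS and 9.85, 12.2 and 26.1 CPM in AL+NaIO3, which did not overlap, and its log2 fold change was 0.79 with replicate 3 and 0.24 without it. Neu1, the lysosomal sialidase, measured 26.5, 24.3 and 24.5 CPM in AL+PBS and 22.4, 24.4 and 22.0 CPM in AL+NaIO3. It was among the 3 members whose level in replicate 3 was below the AL+PBS mean, beside Ctsf and Npc1. Hexa, a subunit of β-hexosaminidase, measured 46.3, 43.05 and 39.6 CPM in AL+PBS and 54.5, 37.9 and 92.7 CPM in AL+NaIO3, overlapping and not called. For Glb1, β-galactosidase, the log2 fold change was 0.19 with replicate 3 and -0.34 without it, neither past the test.

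Among the 6 genes of lipid handling none reached an unadjusted p under 0.05. Lipa, the acid lipase that frees cholesterol from lipoprotein esters, measured 15.7, 18.0 and 17.0 CPM in AL+PBS and 18.5, 18.1 and 67.5 CPM in AL+NaIO3. Replicates 1 and 2 were just above the AL+PBS range and replicate 3 was 3.69 times their mean, so that the log2 fold change was 1.05 with that library and 0.11 without it. Npc2, which hands cholesterol to the membrane transporter Npc1, measured 64.7, 57.2 and 60.01 CPM in AL+PBS and 69.0, 62.2 and 125 CPM in AL+NaIO3. The transporter Npc1 itself did not follow, with 97.6, 87.9 and 91.3 CPM in AL+PBS and 118, 87.2 and 90.2 CPM in AL+NaIO3, where replicate 3 was inside the AL+PBS range. Ppt1, a depalmitoylating thioesterase, had a log2 fold change of -0.015. It measured 87.3, 89.3 and 94.6 CPM in AL+PBS, 92.2, 72.1 and 73.2 CPM in IF+PBS and 84.3, 82.4 and 101 CPM in AL+NaIO3, and both other groups overlapped AL+PBS.

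Of the membrane proteins other than Cd68 and Laptm5, Lamp2 reached an unadjusted p under 0.05, and none did without replicate 3. Lamp2, a glycoprotein needed for the fusion of autophagosomes, measured 81.6, 88.6 and 93.6 CPM in AL+PBS and 111, 93.2 and 296 CPM in AL+NaIO3, with an overlap at replicate 2. Its log2 fold change was 0.93 ± 0.40 (SE, edgeR adjusted p of 0.487), and 0.22 without replicate 3. Cd63 resembled it, with 74.8, 81.5 and 79.7 CPM against 99.9, 81.3 and 244 CPM. Mcoln1, the calcium channel of the lysosomal membrane, measured 60.6, 51.8 and 53.8 CPM in AL+PBS and 46.7, 56.7 and 60.2 CPM in AL+NaIO3, with a log2 fold change of -0.016.

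Of the luminal proteins left, Grn, the precursor of the granulins, measured 37.0, 31.3 and 32.5 CPM in AL+PBS and 44.1, 46.2 and 91.8 CPM in AL+NaIO3. The groups did not overlap, and its log2 fold change of 0.86 ± 0.28 (SE) had an edgeR adjusted p of 0.349 on 6 libraries and of 0.0859 on 12, and it was 0.43 without replicate 3. Tpp1, a tripeptidyl peptidase, was almost level, at 141, 122 and 134 CPM in AL+PBS and 132, 134 and 136 CPM in AL+NaIO3.

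Counted over the list, 15 of the 36 members were higher at an unadjusted p under 0.05 in edgeR, where 7.51% of all genes were, and 0 were lower, where 2.74% were. Without AL+NaIO3 replicate 3 the 15 became 8 (Ctsh, Ctsl, Ctss, Ctsz, Cd68, Laptm5, Lyz2 and Grn), where 6.8% of all genes were higher. The fit of 11 libraries gave 9, adding Ctsd (6.79% of all genes). The log2 fold change was above 0 for 32 members, and for 52.3% of all genes. Without replicate 3 it was above 0 for 27, as Glb1, Gaa, Psap, Asah1 and Scarb2 changed sign. All AL+NaIO3 libraries exceeded all AL+PBS libraries for 14 members (9.8% of all genes), comprising the 4 phagocyte-restricted and 10 others, and all lay below for 0 members (8.32%). The median log2 fold change was 0.53 over the 36 members and 0.014 over all genes tested. Split by kind, it was 2.85 for the phagocyte-restricted members and 0.46 for the other 32. Without replicate 3 these medians were 1.62 and 0.13, and 4 members (Ctss, Cd68, Lyz2 and Ctsh) were called where 0.572% of all genes were. Within AL+NaIO3, replicate 3 exceeded the mean of replicates 1 and 2 by more than 1.5-fold for 25 members, against 19.7% of all genes.

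**Figure D5:**
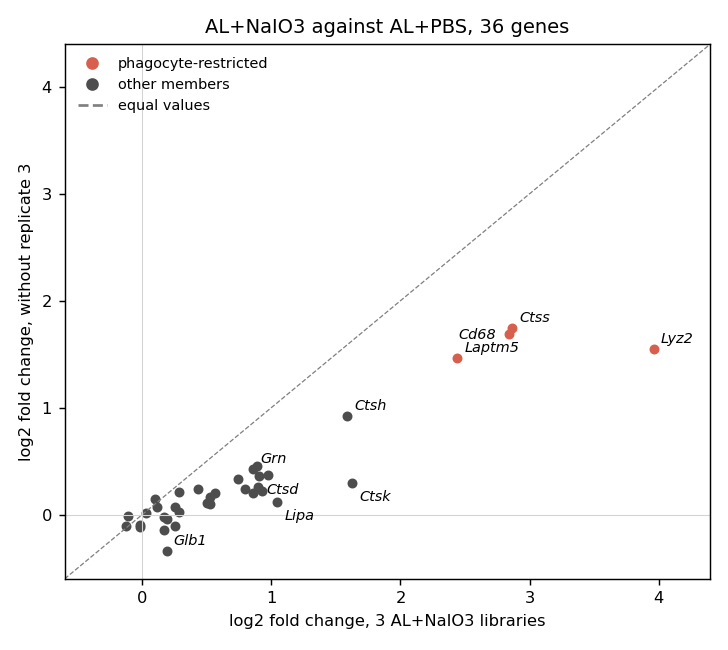
log2 fold change between AL+NaIO3 and AL+PBS for the 36 genes with all 3 AL+NaIO3 libraries (horizontal axis) and without replicate 3 (vertical axis), the dashed line marking equal values. The phagocyte-restricted genes (red) stay between 1.47 and 1.75 without that library, while the other members have a median of 0.13.

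To ask how fasting bore on the injured eye, IF+NaIO3 was compared with AL+NaIO3, a comparison that shares the AL+NaIO3 libraries with the preceding one. The 4 phagocyte-restricted members and Ctsh were lower in every IF+NaIO3 library than in every AL+NaIO3 library. On 6 libraries edgeR called 6 of 15648 genes (0.0383%) and no member. On 12 libraries, again with equal spread assumed in all groups, the same 5 members were called lower, where 1.06% of all genes were. DESeq2 called Ctss, Cd68, Laptm5, Ctsh and Ctsz lower, where 2.94% of all genes were called in either direction, and gave no p for Lyz2. Ctss measured 14.6, 16.2 and 13.5 CPM in IF+NaIO3, against the 38.2 to 218 CPM of AL+NaIO3. Its log2 fold change was -2.84 ± 0.60 (SE), with an edgeR adjusted p of 0.1895 on 6 libraries and of 0.0168 on 12. Cd68 measured 2.30, 1.84 and 2.07 CPM in IF+NaIO3, with a log2 fold change of -2.86 ± 0.63 (SE). Laptm5 was very even at 2.27, 2.29 and 2.38 CPM, and its log2 fold change was -2.59 ± 0.57 (SE). Lyz2 measured 10.04, 7.46 and 8.27 CPM, the lowest mean of the 4 groups, with a log2 fold change of -4.69 ± 1.08 (SE). On 12 libraries the edgeR adjusted p was 0.0182 for Cd68, 0.0203 for Laptm5 and 0.0217 for Lyz2. Ctsh measured 20.7, 17.8 and 15.4 CPM in IF+NaIO3, and its log2 fold change of -1.49 ± 0.39 (SE) had an edgeR adjusted p of 0.0398 on 12 libraries.

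On the 5 libraries left without AL+NaIO3 replicate 3, edgeR called Ctss, Cd68 and Lyz2 lower (0.476% of all genes were called), where the 6 libraries had given no member, with log2 fold changes of -1.73, -1.72 and -2.29. Ctsh at -0.84 and Laptm5 at -1.63 were not called on these 5 libraries, with edgeR adjusted p of 0.0844 and 0.0570, and were called in the fit of 11 libraries (0.758% of all genes). Over the list, 16 members were lower at an unadjusted p under 0.05 (8.22% of all genes) and 0 higher (3.46%). Without AL+NaIO3 replicate 3 the 16 became 7 (Ctsh, Ctss, Ctsz, Cd68, Laptm5, Lyz2 and Grn), where 5.93% of all genes were lower. The fit of 11 libraries gave 12, adding Ctsd, Ctsl, Ctso, Lamp2 and Cd63 (6.68% of all genes). All IF+NaIO3 libraries were below all AL+NaIO3 libraries for 15 members (10.2% of all genes). They were above for 2 members (8.68%), Neu1 with 26.8, 27.9 and 26.8 CPM and Tpp1 with 151, 174 and 150 CPM in IF+NaIO3. The median log2 fold change of the phagocyte-restricted members was -2.85, and -1.73 without replicate 3, and that of the other 32 was -0.48, and -0.12 without replicate 3. The 15 phagocyte markers summed to 64.3 to 85.2 CPM in IF+NaIO3, overlapping the 69.2 to 78.9 CPM of AL+PBS, and 14 of the 15 were lower than in AL+NaIO3 at an unadjusted p under 0.05. Aif1, at 0 counts in 1 IF+NaIO3 library, passed the filter on low counts only through the AL+NaIO3 libraries and so had to be lower. All 8 stroma markers were lower at an unadjusted p under 0.05, with a median log2 fold change of -1.95, and -0.46 without AL+NaIO3 replicate 3. Of 8 Müller cell and astrocyte markers 2 were called lower on 12 libraries, Gfap and Vim, with log2 fold changes of -3.71 and -0.99 on 6. Of the 8, 3 were lower at an unadjusted p under 0.05 and 2 had values above 0. The median of this list was -0.31, and -0.036 without AL+NaIO3 replicate 3. All 12 photoreceptor markers had values above 0, 1 of them at an unadjusted p under 0.05, with a median of 0.51, and 0.15 without replicate 3. Of the 12 RPE markers 3 were higher and 3 lower at that threshold, with a median of 0.28, and 0.63 without replicate 3. The part of these cell types was again not tested.

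The effect of the diet alone was read from IF+PBS against AL+PBS. The lysosomal genes were nearly level, with a median log2 fold change of 0.11 over the 36 members and a range of -0.30 to 0.41 over the 32 outside the phagocyte-restricted set. edgeR called 0 of 15361 genes (0.0%), with 2623 genes at an unadjusted p under 0.05, and DESeq2 called 164 genes (1.17%), none of them a member. Gusb, at 12.1, 12.6 and 12.3 CPM in IF+PBS against 9.11, 9.09 and 9.73 CPM in AL+PBS, had the largest difference among the 32, a log2 fold change of 0.41 ± 0.14 (SE, edgeR adjusted p of 0.212). Its groups were tight and did not overlap. Lamp2 measured 72.2, 66.9 and 74.4 CPM in IF+PBS, each below the AL+PBS libraries, with a log2 fold change of -0.30 ± 0.09 (SE, edgeR adjusted p of 0.194). Scarb2, the membrane receptor that carries glucocerebrosidase to the lysosome, was also lower in all libraries, at 119, 131 and 126 CPM against 153, 156 and 142 CPM, with a log2 fold change of -0.26 ± 0.09 (SE, edgeR adjusted p of 0.204). Neu1 measured 28.3, 30.5 and 28.8 CPM in IF+PBS, each above the AL+PBS libraries, with a log2 fold change of 0.22 ± 0.10 (SE, edgeR adjusted p of 0.302). Both cathepsins with the largest differences overlapped AL+PBS at IF+PBS replicate 1. Ctsa measured 103, 137 and 124 CPM in IF+PBS and Ctsf 138, 186 and 160 CPM. Npc2 at 63.6, 71.9 and 69.3 CPM and Grn at 36.1, 40.6 and 39.4 CPM overlapped AL+PBS at the same library. At an unadjusted p under 0.05, 2 members were higher (Ctsa and Gusb, 8.22% of all genes) and 2 lower (Lamp2 and Scarb2, 8.85%), shares near those of all genes. Groups did not overlap for 2 members that were higher (Gusb and Neu1, 10.3% of all genes) and 3 that were lower (Ctsc, Lamp2 and Scarb2, 11.6%). Without IF+PBS replicate 1 edgeR called 472 genes, none of them a member, and 9 members were higher at an unadjusted p under 0.05. The share of all genes at that threshold in this fit is not given, so the 9 is not a result about the members. Marker lists differed as well at an unadjusted p under 0.05. Of 8 stroma markers 5 were lower, with a median of -0.68, of 12 RPE markers 4 were higher and 1 lower, of 12 photoreceptor markers 2 were higher and 4 lower, and of 8 Müller cell and astrocyte markers 3 were lower. The part of these cell types in the values was not tested.

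The phagocyte-restricted members did not separate by diet in PBS mice. Ctss measured 12.7, 13.2 and 14.1 CPM in IF+PBS, Laptm5 1.98, 2.73 and 2.57 CPM and Cd68 2.14, 2.93 and 2.88 CPM, each overlapping AL+PBS. Lyz2 at 9.47, 13.1 and 9.48 CPM overlapped as well, and the median log2 fold change of the 4 was -0.10. Their summed level was 26.3 to 31.9 CPM in IF+PBS and 29.3 to 38.3 CPM in AL+PBS.

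In fasted mice, NaIO3 was compared with PBS in the same way (IF+NaIO3 against IF+PBS). None of 15305 genes was called by edgeR (0.0%), with 2326 at an unadjusted p under 0.05, and the 79 genes called by DESeq2 (0.729%) held none of the 31 members it gave an adjusted p. The phagocyte-restricted members, which were high in AL+NaIO3, had a median log2 fold change of -0.19 here, and all 4 overlapped between the groups. Ctss had a log2 fold change of 0.15 ± 0.14 (SE), Laptm5 of -0.070 ± 0.28, Cd68 of -0.35 ± 0.29 and Lyz2 of -0.31 ± 0.20. Of the other members, 2 were higher at an unadjusted p under 0.05 (Lamp2 and Asah1, 8.47% of all genes) and 6 lower (Ctsz, Gaa, Gusb, Psap, Npc2 and Cd63, 6.72%). Groups did not overlap for 5 members that were higher (10.2% of all genes) and 7 that were lower (10.7%). Gusb returned to 9.44, 8.95 and 8.82 CPM in IF+NaIO3, below all IF+PBS libraries, with a log2 fold change of -0.44 ± 0.15 (SE, edgeR adjusted p of 0.242). Psap measured 674, 739 and 666 CPM in IF+PBS and 613, 519 and 624 CPM in IF+NaIO3, without overlap and with a log2 fold change of -0.24 ± 0.10 (SE, edgeR adjusted p of 0.297). RPE markers were lower in this comparison too, with 8 of 12 at an unadjusted p under 0.05 and a median of -0.54, and 4 of 12 photoreceptor markers were higher.

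Whether the NaIO3 difference itself differed between the diets was tested as the interaction of diet and injection over 12 libraries. edgeR called 5 of 15970 genes (0.0313%) and no member. At an unadjusted p under 0.05, 16 members had a negative interaction (6.88% of all genes), meaning a lower NaIO3 difference under IF, and 0 a positive interaction (5.08%). Without AL+NaIO3 replicate 3 the 16 became 11, where 5.41% of all genes had a negative interaction. The interaction was -2.70 ± 0.64 (SE) for Ctss, -3.18 ± 0.70 for Cd68, -2.50 ± 0.65 for Laptm5 and -4.25 ± 1.12 for Lyz2, on the log2 scale. Their edgeR adjusted p were 0.206, 0.166, 0.232 and 0.232. Without AL+NaIO3 replicate 3 the values were -1.60, -2.05, -1.54 and -1.87, and edgeR called Ctss, Cd68 and Lyz2 (0.199% of all genes were called). DESeq2 called all 4 and Ctsz on the 12 libraries, where 1.22% of all genes were called. For the other members the median interaction was -0.52, and -0.24 without replicate 3. Npc1, Asah1, Scarb2, Tpp1, Ppt1 and Neu1 were the members with a value above 0, at most 0.16, and upper quartile scaling gave Neu1 -0.023. Without AL+NaIO3 replicate 3, 8 members had a value above 0 (Gla, Glb1, Npc1, Asah1, Ppt1, Lamp2, Scarb2 and Tpp1), at most 0.32. Among them only Scarb2 was at an unadjusted p under 0.05.

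Many lysosomal genes are known to carry the CLEAR element, a palindrome around CACGTG that is read by TFEB, TFE3 and MITF when lysosomes are made. CACGTG was present in 10 of the 32 promoter windows (31.2%), against 8.09% of all 27025 genes. They were those of Ctsa, Ctsd, Ctsf, Ctsl, Gla, Glb1, Gaa, Naglu, Lamp1 and Mcoln1. Lamp1 held 4 copies within the 80 bases before its start, in capitals here.

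Lamp1 (chr8:13159081-13159160, plus strand): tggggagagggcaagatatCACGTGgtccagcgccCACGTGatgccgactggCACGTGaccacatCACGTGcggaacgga

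The longer palindrome TCACGTGA, which contains CACGTG, was present for Ctsa, Ctsd, Gla and Mcoln1, 12.5% of the 32 windows against 1.12% of all genes. Ctsa and Gla held 2 copies each. Both copies of Ctsa, before and after its RefSeq start, and the single copies of Ctsd and Mcoln1 are shown with the palindrome in capitals. The RefSeq starts of these genes lie inside the bounds that the count table gives them. None of the phagocyte-restricted members held CACGTG in this window, and of the 5 members called between AL+NaIO3 and AL+PBS the window of Ctsh was not found. Both strands were searched.

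Ctsa before the start (chr2:164833749-164833778): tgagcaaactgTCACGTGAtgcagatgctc
Ctsa after the start (chr2:164833766-164833795): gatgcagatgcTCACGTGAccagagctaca
Ctsd (chr7:142387908-142387937): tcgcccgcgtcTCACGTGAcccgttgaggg
Mcoln1 (chr8:3500462-3500491): aggcgccccgcTCACGTGAccgcggcgcat

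The rest of the lysosomal system was followed through further lists, whose counts at an unadjusted p under 0.05 stand against 7.51% of all genes higher and 2.74% lower in this comparison. Of 30 other lysosomal enzymes and cofactors, 5 were higher in AL+NaIO3 than in AL+PBS at an unadjusted p under 0.05 and 0 lower. Of 21 subunits of the V-ATPase, the proton pump that acidifies lysosomes, 3 were higher at an unadjusted p under 0.05. On 12 libraries 1 was called higher. That was Tcirg1, a subunit abundant in macrophages and osteoclasts, at 9.69, 7.79 and 10.8 CPM in AL+PBS and 15.6, 28.2 and 36.02 CPM in AL+NaIO3 (edgeR adjusted p of 0.0296), with a log2 fold change of 1.504 on 6 libraries and 1.22 without replicate 3.

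Of 24 other membrane proteins, 4 were higher and 1 lower at an unadjusted p under 0.05, and none was called. The largest difference was at Gpnmb, a glycoprotein of lipid-laden macrophages and pigment cells, at 39.5, 26.2 and 34.1 CPM in AL+PBS and 57.3, 33.9 and 642 CPM in AL+NaIO3. Its high value was that of replicate 3, replicate 2 lay in the AL+PBS range, and the log2 fold change was 2.89 with replicate 3 and 0.455 without it. The 20 genes of lysosomal sorting held 0 higher and 1 lower at that threshold, with a median log2 fold change of 0.042, and -0.066 without replicate 3. The 19 genes of lysosomal transcription and nutrient sensing held 0 in either direction, with a median of -0.015, and Tfeb measured 14.6, 9.80 and 12.1 CPM in AL+PBS and 13.2, 10.4 and 14.0 CPM in AL+NaIO3.

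Inhibitors of lysosomal proteases were a further list, of which 7 genes were tested. Serpina3n, a secreted serine protease inhibitor of reactive glia, was called higher on 12 libraries (edgeR adjusted p of 0.00833). It measured 7.73, 12.04 and 11.5 CPM in AL+PBS and 71.2, 74.3 and 429 CPM in AL+NaIO3. Its log2 fold change was 4.21 on 6 libraries and 2.80 without replicate 3. In IF+NaIO3 it measured 5.26, 8.76 and 6.61 CPM and was called lower than in AL+NaIO3 (edgeR adjusted p of 0.00434 on 12 libraries). Cst7, cystatin F of microglia, had 0 counts in each AL+PBS library and 36, 23 and 42 counts in AL+NaIO3. It passed the filter on low counts through the AL+NaIO3 libraries and so had to differ, and its edgeR adjusted p of 0.04995 on 12 libraries lay at the threshold. Cst3, cystatin C and by far the most abundant inhibitor here, measured 916, 998.5 and 933 CPM in AL+PBS and 1233, 788 and 966 CPM in AL+NaIO3, overlapping groups. In IF+NaIO3 against AL+NaIO3, edgeR on 12 libraries also called lower Sgsh, the heparan sulfatase, and Slc29a3, a lysosomal nucleoside transporter. Their log2 fold changes were -0.77 and -1.52 on 6 libraries, and -0.69 and -0.96 without AL+NaIO3 replicate 3.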

How the data were processed

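Polyadenylated RNA from eye cup tissue was sequenced in 12 libraries, with HISAT2, StringTie, DESeq2, edgeR and the build GRCm39 named in the submitters' processing notes. The gene positions of the deposited table overlapped RefSeq GRCm38.p6 for 36 of 36 members, so coordinates are given as GRCm38. The authors deposited raw counts per gene and FPKM values. Whether counting used strand is not given in the sources used here. Another listed gene overlaps 10 members (Ctsa, Ctsb, Ctsd, Ctsz, Hexa, Glb1, Npc1, Ppt1, Lamp1 and Grn), whose reads could be shared with it. The authors' table of comparisons holds fold changes and p-values and was not used, and 0 columns lacked a sample.

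Counts were tested with edgeR 4.0.16 (R 4.3.3), with TMM scaling, filterByExpr and the quasi-likelihood test, on the 6 libraries of each comparison, and with Benjamini-Hochberg adjustment over all genes tested. Calls needed a 1.5-fold or larger difference besides an adjusted p below 0.05. The interaction used 12 libraries and the adjusted p alone. SE is the absolute log2 fold change divided by the square root of F. CPM used TMM-scaled totals of all 12 libraries. FPKM served only to compare levels between genes. Alternatives were DESeq2 1.42.0, upper quartile scaling, no filter, a minimum of 10 counts, the 12 libraries in one fit, a replicate block and leaving out each library. The 12-library fit without AL+NaIO3 replicate 3 was added after seeing the data. Fits over all groups assume the same spread of a gene in each group. Scripts were tested on simulated data. Depth was 26364665 to 43046950 counts per library (median 31822705), so counting error was small for all but the lowest members. No libraries were duplicates. Replicate numbers did not pair libraries across groups.

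The members and lists were chosen with earlier results of these data known. By the rule for named genes, values by library are given, in the groups a comparison turns on, for the phagocyte-restricted members, for called members and, in each class, for the 2 with the largest absolute log2 fold change in AL+NaIO3 against AL+PBS and the 2 in IF+PBS against AL+PBS. The other genes with such values were chosen after their values were seen.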

Additional observations from a re-analysis of the deposited data

Results flagged for a closer look

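Of the 16 members given values by rule, 9 stood out because their libraries lay on opposite sides of the PBS mean under the 2 diets, though none was called in IF+NaIO3 against IF+PBS. In each of them every AL+NaIO3 library lay above the AL+PBS mean and every IF+NaIO3 library below the IF+PBS mean. The interaction of diet and injection on the log2 scale was -4.25 for Lyz2, -3.18 for Cd68, -2.50 for Laptm5, -1.88 for Ctsk, -1.25 for Lipa, -1.23 for Gusb, -1.04 for Grn, -0.71 for Npc2 and -0.41 for Ctsa. The 9 were picked by these same values, so a negative interaction was fixed beforehand and its tests are no separate evidence. In this term no gene of the 9 passed in edgeR on 12 libraries, with adjusted p between 0.166 (Cd68) and 0.400 (Lipa). DESeq2 called Cd68, Laptm5 and Lyz2, and edgeR called Cd68 and Lyz2 without AL+NaIO3 replicate 3. For Laptm5 the difference between IF+NaIO3 and IF+PBS was -0.070 ± 0.28 (SE), with overlapping groups. Without AL+NaIO3 replicate 3 the 9 values kept their sign, as the way they were picked required. They were smaller in size, at -1.87 for Lyz2, -2.05 for Cd68, -1.54 for Laptm5, -0.58 for Ctsk, -0.34 for Lipa, -0.69 for Gusb, -0.62 for Grn, -0.34 for Npc2 and -0.36 for Ctsa. All but Ctsa moved by over 1.5 times.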

How the results depend on the processing

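Without replicate 3 of AL+NaIO3 the median log2 fold change between AL+NaIO3 and AL+PBS went from 2.85 to 1.62 for the phagocyte-restricted members and from 0.46 to 0.13 for the other 32, while 4 members were called in place of 0. With 3 libraries a group, every test is limited.
With DESeq2, 4 members were called between AL+NaIO3 and AL+PBS, 5 between IF+NaIO3 and AL+NaIO3, and 5 in the interaction, among 446, 500 and 212 genes, and 164 and 79 genes were called in the IF+PBS and IF comparisons, with no member. In the fit of the 12 libraries, 5 members were called in each of the first 2 comparisons, among 177 and 190 genes. At an unadjusted p under 0.05 that fit gave 2 members higher in IF+NaIO3 than AL+NaIO3, 1 higher and 0 lower in IF+PBS, and 0 higher and 0 lower in IF+NaIO3 against IF+PBS. Without the filter, 19, 16 and 13 genes were called in those 2 comparisons and the interaction, and 2 in IF+NaIO3 against IF+PBS. Fitting the 12 libraries without AL+NaIO3 replicate 3, chosen after seeing the data, called 127 and 122 genes with 5 members each, 9 members at an unadjusted p under 0.05 higher and 1 higher in IF+NaIO3, with a median of -0.18. Upper quartile scaling moved the median interaction to -0.67 and gave Ppt1 0.017 (AL+NaIO3 against AL+PBS) and Neu1 -0.023 (interaction).

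The replicate numbers did not pair the libraries (18 pairs, correlations of -0.10 to 0.14, 1 over 0.1). With the replicate block, 28, 28, 5 and 8 genes were called in AL+NaIO3 against AL+PBS, IF+NaIO3 against AL+NaIO3, IF+PBS against AL+PBS and the interaction, and no member. The block gave medians of -0.45 (IF+NaIO3 against AL+NaIO3) and -0.56 (interaction), 1 member higher in IF+PBS at an unadjusted p under 0.05, and 0 higher and 2 lower in IF+NaIO3 against IF+PBS.

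Leaving out each library in turn gave 0 to 4, 0 to 3, 0 to 0, 0 to 0 and 0 to 6 members called in the 5 tests in the order of the text, among 0 to 90, 0 to 75, 1 to 472, 0 to 197 and 3 to 366 genes. The extremes came without AL+NaIO3 replicate 3 (90 and 75), IF+PBS replicate 1 (472 and 197) and AL+NaIO3 replicate 1 (366). The most members called, 4 and 3, were those without AL+NaIO3 replicate 3, and the 6 of the interaction those without AL+NaIO3 replicate 1. Members higher at an unadjusted p under 0.05 numbered 6 to 23, 0 to 1, 1 to 9, 0 to 2 and 0 to 1, and members lower 0 to 1, 7 to 20, 2 to 3, 1 to 10 and 10 to 24. No share of all genes stands beside the member counts at an unadjusted p in this section. They describe the fits and are not results about the members. Median log2 fold changes were 0.18 to 0.72, -0.72 to -0.19, 0.045 to 0.12, -0.18 to -0.055 and -0.79 to -0.26. Of 1070 values of the 16 members named by rule, 996 kept their side, 49 became called and 25 changed sign. Without a single library, those of the 16 with a sign change ran from -0.12 to 0.037 for Ppt1 in AL+NaIO3 against AL+PBS. In IF+PBS against AL+PBS the ranges were -0.13 to 0.34 for Ctsk, -0.0094 to 0.24 for Lipa and -0.22 to 0.048 for Laptm5. In IF+NaIO3 against IF+PBS they were -0.28 to 0.048 for Manba, -0.029 to 0.16 for Ppt1 and -0.20 to 0.022 for Laptm5. In the interaction they were -0.13 to 0.16 for Ctsf, -0.017 to 0.071 for Neu1, -0.011 to 0.18 for Ppt1 and -0.94 to 0.049 for Lamp2, whose value of -0.64 turned without AL+NaIO3 replicate 3. Of the other 20 members, Glb1 turned without that library in AL+NaIO3 against AL+PBS (from 0.19 to -0.34), IF+NaIO3 against AL+NaIO3 (from -0.51 to 0.0099) and the interaction (from -0.43 to 0.082). Psap (from 0.25 to -0.11), Scarb2 (from 0.17 to -0.14), Asah1 (from 0.19 to -0.042) and Gaa (from 0.17 to -0.021) turned in the first, and Scarb2 (from -0.26 to 0.048), Lamp1 (from -0.17 to 0.010), Asah1 (from -0.030 to 0.19) and Npc1 (from 0.039 to -0.023) in the second. In the interaction Gla also turned without AL+NaIO3 replicate 3, to a value above 0. Some members with smaller values turned without another library.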
